A study of Homo sapiens with 6 samples.

Results

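MUC1 and 9 genes used as markers of cancer stemness were followed in DU-145/tet-XISTshRNA cells, a prostate cancer cell line that carries a doxycycline (DOX)-inducible short hairpin RNA against the lncRNA XIST. The members were taken by name (MUC1, MYC, KLF4, SOX2, SOX9, POU5F1, CD44, ALDH1A1, ALDH1A3 and NOTCH1), and all 10 were found among the 25528 gene symbols of the deposited table. Transcripts were measured by RNA-seq in 3 samples given vehicle (0.1% DMSO) and 3 samples given 500 ng/ml DOX, for 7 days by the study's description. Every sample, vehicle included, came from DU145 cells that carry the vector and had been selected with puromycin or geneticin. The question for these genes was whether their transcripts differ once the hairpin against XIST is switched on.

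The design sets limits on what the comparison can show. It holds 1 cell line and 1 vector, and no DOX-treated cells with a control hairpin are among the 6 samples, so DOX itself and the hairpin cannot be told apart. The labels state that cells were cultured in triplicates and do not say more on how the cultures were separated, so p-values measure the spread between these samples. XIST, the targeted transcript, was listed at 0 in 6 of 6 samples, as was EIF4A1, a translation factor that cells generally need, so a listed 0 can be a failed estimate and the silencing could not be checked here.

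MUC1 is a transmembrane mucin of epithelial cells that is cleaved into an extracellular subunit and a C-terminal subunit, MUC1-C, which spans the membrane and has signaling and nuclear functions in carcinoma cells. MYC, KLF4, SOX2 and POU5F1 (OCT4) are the transcription factors that together reprogram somatic cells to pluripotency, and SOX9 is a related factor of progenitor cells in many epithelia. CD44 is a receptor for hyaluronan, and ALDH1A1 and ALDH1A3 are enzymes that oxidize retinal to retinoic acid. Both are used to sort cancer stem cells, by CD44 surface staining or by aldehyde dehydrogenase activity. NOTCH1 is a receptor whose cleaved intracellular part enters the nucleus and binds the DNA-binding protein RBPJ.

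Values are TPM (transcripts per 1000000 transcripts), which divide reads by gene length and set each sample's total to 1000000. Between 67.5% and 82.6% of that total was held by 5 small non-coding RNAs, with vehicle replicate 3 lowest and DOX replicate 1 highest, so a gene's TPM moves with their share. Each member is therefore also given after median-of-ratios scaling, which sets the typical gene to the same level in each sample. That scaling moved the median over all genes tested from -0.35 to 0.02 (log2 fold change, DOX against vehicle). Reads on genes, recovered from the TPM and the mean normalized counts, ranged from 5459261 in vehicle replicate 3 to 64624062 in DOX replicate 1. Of the epithelial markers KRT8, KRT18, KRT19, EPCAM, CDH1 and CLDN4, 6 of 6 passed the expression minimum. The prostate luminal marker KLK3 was listed at 0 in all 6 samples. The summed TPM was at most 0.0597 for 3 endothelial markers and at most 0.817 for 4 fibroblast markers. For the leukocyte markers PTPRC, CD3E, CD14 and CD68 the summed TPM was 15.5 to 20.3 in vehicle and 11.7 to 13.7 in DOX, with CD3E listed at 0 in all samples and CD68, a lysosomal protein that is not limited to leukocytes, at 17.1 and 12.2 TPM on average. The part of these markers in the results was not tested.

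Under DOX, 7 of the 10 members could be tested and none passed the test. The test was limma on log2(TPM + 1) over the 11672 genes whose mean reached 1 TPM, and a call needed a fold above 1.5 together with an adjusted p-value below 0.05. By that rule 0 of 7 members were called, beside 3.01% of all genes tested in either direction. Before adjustment, KLF4 alone passed 0.05 in this limma fit. After median-of-ratios scaling 0 of 7 members were called and 0 had an unadjusted p-value under 0.05, beside 0% of all genes called. With voom on recovered reads the counts for the members were again 0 and 0, beside 0.00857% of all genes called. The 7 log2 fold changes ran from -0.50 to -0.10 on the TPM scale, with a median of -0.42 beside -0.35 for all genes. After scaling they ran from -0.21 to 0.15, with a median of 0.01 beside 0.02. On the TPM scale all DOX samples were below all vehicle samples for 3 members (MYC, KLF4 and ALDH1A3), beside 30.7% of all genes, and above them for 0, beside 0.223%. After scaling no member kept that separation, beside 9.13% of all genes. SOX9 then had all DOX samples above all vehicle samples, beside 10.9% of all genes. As these are bulk samples, fewer cells that make a transcript and less RNA per cell cannot be told apart. With vehicle and DOX samples of the same replicate number treated as a block, KLF4 had an adjusted p of 0.0195 in limma at a log2 fold change of -0.50, under the fold threshold, and 0 members were called while 19.1% of all genes were. Before adjustment, 4 of the 7 members passed 0.05 in limma with that block on the TPM scale (MYC, KLF4, CD44 and ALDH1A3). After scaling with the block, 0 did.

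**Figure D1:**
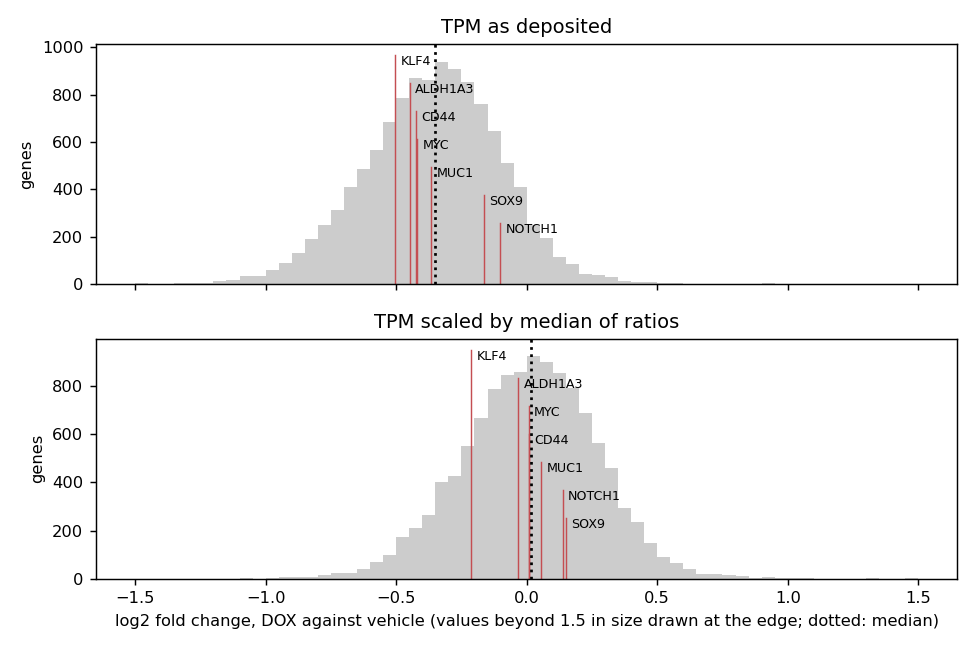
Histograms of the log2 fold change, DOX against vehicle, over all genes tested (vertical axis, number of genes), for TPM as deposited (top) and after median-of-ratios scaling (bottom), with the dotted line at the median and red lines at the 7 members tested. The members sit around the median in both panels, between -0.50 and -0.10 on the TPM scale and between -0.21 and 0.15 after scaling, with KLF4 lowest in both.

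The members fell into 3 ranges of expression. CD44 was the highest with a mean of 32.3 TPM over the 6 samples, followed by MYC with 21.7 TPM, MUC1 with 15.5 TPM and ALDH1A3 with 13.9 TPM. SOX9 (2.48 TPM), KLF4 (1.82 TPM) and NOTCH1 (1.09 TPM) came next, and SOX2, ALDH1A1 and POU5F1 were at or near 0. CD44 thus stood above 87.7% of the genes tested and NOTCH1 above 1.69%. Among the 7 members with a mean of at least 1 TPM, the order held between neighbors in 6 of 6 samples except for MUC1 and ALDH1A3, which were in order in 4 of 6, and SOX9 and KLF4, in order in 5 of 6. For both of these pairs the order was thus not the same in all samples, and the difference in level between genes was not tested.

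**Figure D2:**
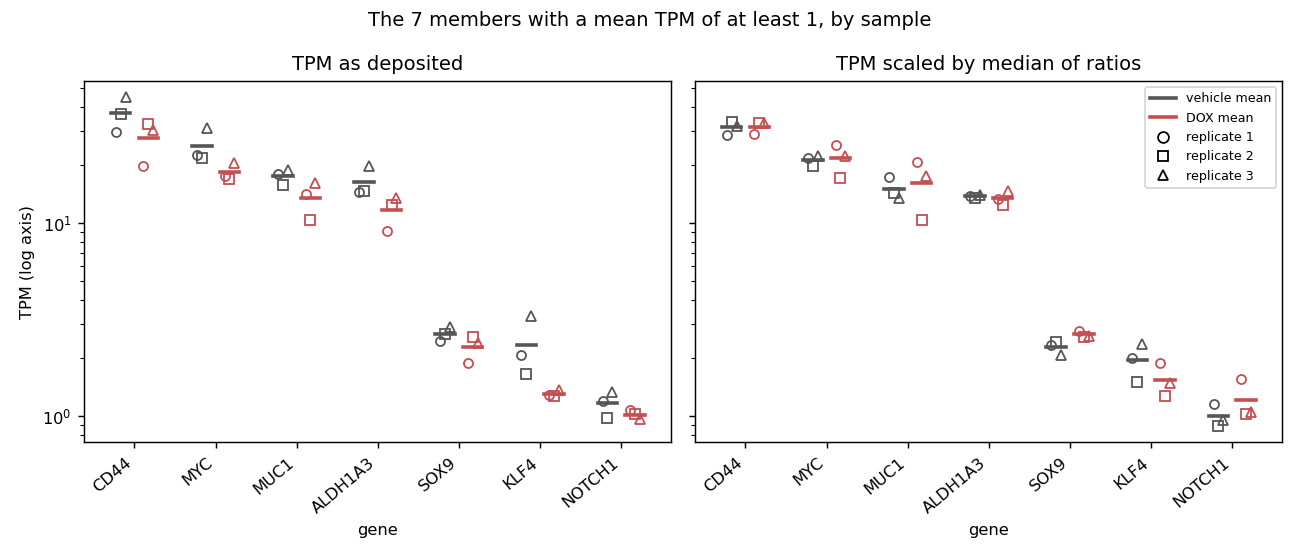
Level of the 7 members with a mean TPM of at least 1 in each of the 6 samples (logarithmic vertical axis, TPM), as deposited (left) and after median-of-ratios scaling (right), with vehicle in grey, DOX in red, a marker shape for each replicate number and a line at each group mean. CD44 is highest at 32.3 TPM on average and NOTCH1 lowest at 1.09 TPM, and the groups lie closer together on the right.

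MUC1 lies on chromosome 1 (GRCh38, chr1:155185824-155192916, minus strand). The 250 bases before its start site are shown because the comparison asks about transcripts from this gene, with capitals for matches on either strand to GGGCGG, the core of the SP1 motif, and to TATAAA, the TATA box. The sequence is from RefSeq (GRCh38.p14, chr1:155192916-155193165, minus strand) and reads 5′ to 3′.
MUC1: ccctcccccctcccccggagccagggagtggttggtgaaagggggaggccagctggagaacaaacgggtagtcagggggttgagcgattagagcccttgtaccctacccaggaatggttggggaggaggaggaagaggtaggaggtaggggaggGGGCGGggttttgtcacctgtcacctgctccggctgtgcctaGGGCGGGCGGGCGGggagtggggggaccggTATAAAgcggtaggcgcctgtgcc
It held 4 matches to GGGCGG, overlapping ones included, and 1 to TATAAA, had a GC content of 66.0%, and held none to the NF-kB consensus. Of 35116 promoter stretches of this length, 42.6% held GGGCGG, 10.7% held TATAAA and 9.96% the NF-kB consensus. These matches describe the letters of this window and are not measured binding sites. The paper places an NF-kB motif in an enhancer region of MUC1, and whether that region reaches into this window was not tested.

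MUC1 was at 17.9, 15.7 and 18.9 TPM in vehicle replicates 1, 2 and 3 and at 14.1, 10.3 and 16.0 TPM in DOX replicates 1, 2 and 3. DOX replicate 2 was the lowest of the 6, and DOX replicate 3 lay above vehicle replicate 2, so the groups overlapped. The means were 17.5 ± 1.60 TPM in vehicle and 13.5 ± 2.89 TPM in DOX (SD, n = 3 each), and the log2 fold change was -0.37 (SE 0.26, limma adjusted p = 0.312). This value was close to the median of all genes, with 47.4% of genes below it. After scaling, MUC1 was at 17.2, 14.3 and 13.5 in vehicle and at 20.6, 10.4 and 17.4 in DOX, so that the DOX samples held both the highest and the lowest level. The scaled log2 fold change was 0.06 (95% interval -0.43 to 0.54, limma adjusted p = 0.908), which is a fold of 1.04 (0.744 to 1.45). Between same-numbered samples, the scaled log2 difference was 0.25 for replicate 1, -0.43 for replicate 2 and 0.34 for replicate 3. DOX replicate 2 thus went the other way from the other pairs, and without it the scaled log2 fold change of MUC1 was 0.32 (limma adjusted p = 0.213). The recovered reads on MUC1 were 679, 657 and 168 in vehicle and 3231, 464 and 717 in DOX, fewest in the shallowest library.

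Among the mucins, MUC1 was the main transcript of these cells. It held 89.5%, 88.6% and 86.9% of the summed TPM of 16 mucin genes in the vehicle samples and 93.0%, 90.7% and 91.7% in the DOX samples. This share does not depend on how samples are scaled, and the groups did not overlap (88.3 ± 1.28% against 91.8 ± 1.19%). The exact permutation test gave a two-sided p of 0.100, the smallest it can give for 3 samples against 3, or 0.300 after Benjamini-Hochberg adjustment over the 6 family shares compared. MUC16, the mucin that carries the CA125 antigen, was the other mucin tested, at 1.66 ± 0.467 TPM in vehicle and 0.775 ± 0.225 TPM in DOX. Its log2 fold change was -0.58 (SE 0.19, limma adjusted p = 0.0629) as deposited and -0.34 (adjusted p = 0.298) after scaling. With voom on recovered reads and the replicate block, MUC16 was called lower at -0.66 (SE 0.12, limma adjusted p = 0.0125), beside 2.24% of all genes called lower in that fit. With the GC and length correction, MUC16 was at -0.22 (limma adjusted p = 0.607) and was not called. MUC1 was at -0.26 (limma adjusted p = 0.531) in that fit, so it no longer fell less than MUC16. The share of MUC1 was taken without that correction and may depend on it. MUC3A, a mucin of the intestinal type, followed with 0.471 TPM in vehicle and 0.321 TPM in DOX, and 3 of the 15 other mucins were listed at 0 in all samples.

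The genes whose scaled level across the 6 samples was most like that of MUC1 were AHNAK2, PSAP and GRB7. Likeness was the root mean square difference of centered log2 values over 6 samples, and it was 0.041 for AHNAK2, 0.049 for PSAP and 0.061 for GRB7, where MUC1 itself varied by 0.295. AHNAK2 encodes a large scaffold protein, PSAP the precursor of the saposins of the lysosome, and GRB7 an adapter of receptor tyrosine kinases. PSAP, as an example, was at 165, 138 and 135 TPM in vehicle and at 201, 110 and 159 TPM in DOX after scaling. Among the members, MYC was the most like MUC1 with a difference of 0.157, at rank 265 of 11629 genes, and CD44 the least with 0.360. These are descriptions over 6 samples that share libraries and depth.

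**Figure D3:**
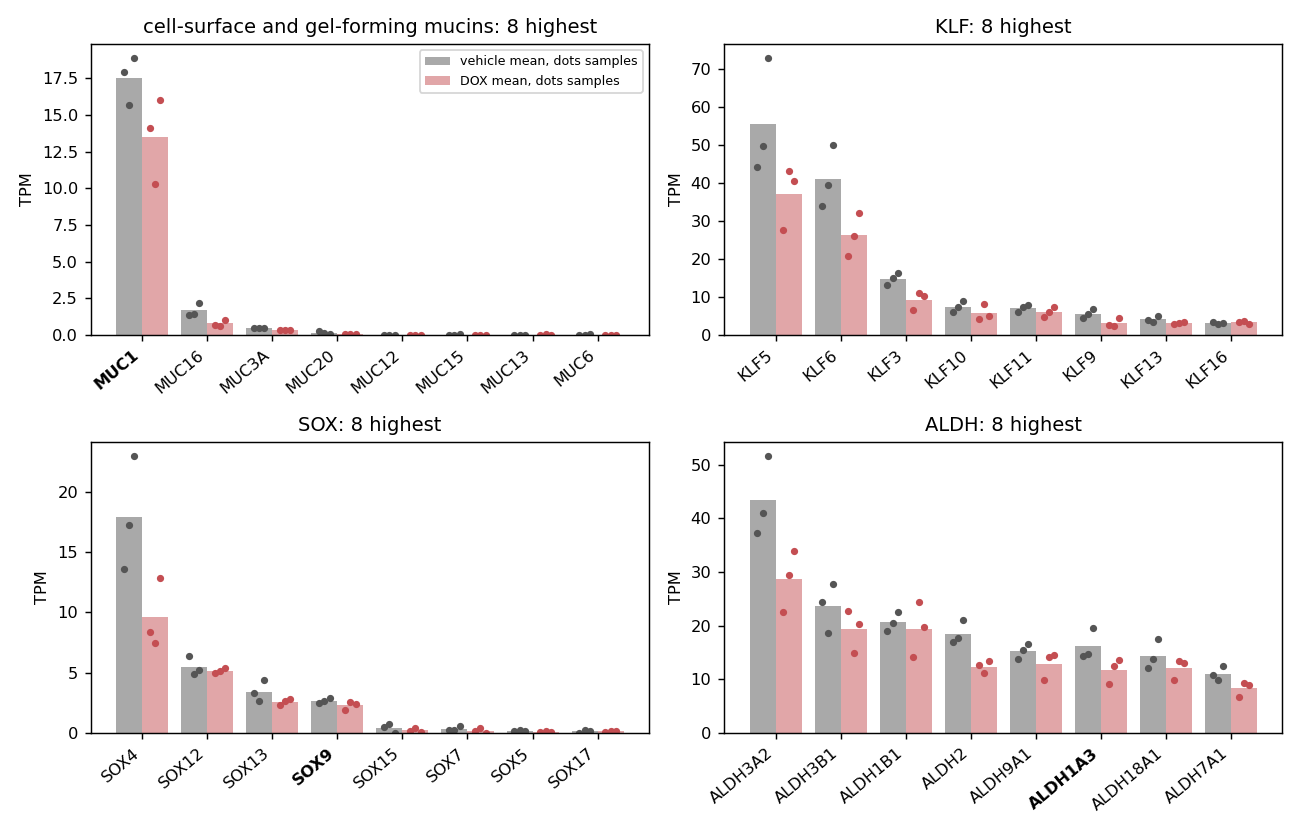
Level in TPM (vertical axis) of the 8 highest genes in each of the mucin, KLF, SOX and ALDH families, with bars at the group means (vehicle grey, DOX red), dots at the 6 samples and members in bold. MUC1 leads the mucins with 17.5 TPM in vehicle and 13.5 TPM in DOX, while KLF4 is too low to be among the 8 highest KLF genes and SOX9 and ALDH1A3 rank at 4 and 6.

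MYC, a transcription factor of growth and proliferation, was at 22.6, 21.6 and 30.9 TPM in vehicle and at 17.5, 16.9 and 20.5 TPM in DOX. All DOX samples were below all vehicle samples, with vehicle replicate 3 standing above the rest. The means were 25.0 ± 5.11 TPM and 18.3 ± 1.93 TPM, and the log2 fold change was -0.42 (SE 0.26, limma adjusted p = 0.263). After scaling the levels were 21.7, 19.7 and 22.1 in vehicle and 25.4, 17.0 and 22.3 in DOX, and both the highest and the lowest belonged to DOX. Scaled, the log2 fold change of MYC was 0.01 (95% interval -0.33 to 0.35, limma adjusted p = 0.981). MYC held 97.1 ± 0.386% of the TPM of the 3 MYC family genes in vehicle and 96.6 ± 0.202% in DOX (exact permutation p = 0.300). Of the 12 listed genes of the MYC family and the MAX network, through which MYC binds DNA or is opposed, 9 were tested and 0 were called on either scale. With the replicate block on the TPM scale 1 of the 9, MGA, was called lower, beside 19.0% of all genes. The median log2 fold change of the 9 was -0.32 as deposited and 0.09 after scaling. MAX, the obligate partner of MYC, averaged 21.4 TPM in vehicle and 16.9 TPM in DOX (log2 fold change -0.32, limma adjusted p = 0.384), and MXD4, a MAX partner that represses, averaged 16.4 and 14.2 TPM (-0.20, adjusted p = 0.581).

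KLF4, a zinc finger factor of epithelial differentiation and reprogramming, was at 2.08, 1.65 and 3.28 TPM in vehicle and at 1.29, 1.27 and 1.36 TPM in DOX. The DOX samples lay close together and below all vehicle samples, which were themselves spread. The means were 2.34 ± 0.848 TPM and 1.30 ± 0.0480 TPM, and the log2 fold change was -0.50 (SE 0.20, limma adjusted p = 0.104). After scaling the levels were 2.00, 1.5 and 2.35 in vehicle and 1.88, 1.27 and 1.48 in DOX, so the groups overlapped. For KLF4 the scaled log2 fold change was -0.21 (95% interval -0.56 to 0.14, limma adjusted p = 0.488). KLF4 kept a negative sign under all 22 alternatives, from -0.74 to -0.11. Without vehicle replicate 3, whose KLF4 value rests on 51 reads, the TPM log2 fold change was -0.31 (limma adjusted p = 0.496). The other libraries held 99 to 514 reads on KLF4.

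KLF4 ranked 11 of 17 KLF genes by mean TPM and held 1.53 ± 0.324% of the family's TPM in vehicle and 1.31 ± 0.274% in DOX (exact permutation p = 0.300). KLF5 and KLF6, factors of epithelial growth and wound response, were the highest of the family. KLF5 averaged 55.6 TPM in vehicle and 37.1 TPM in DOX (log2 fold change -0.56, limma adjusted p = 0.173) and KLF6 averaged 41.1 and 26.3 TPM (-0.63, adjusted p = 0.127). After scaling, KLF5 was at -0.12 (adjusted p = 0.607) and KLF6 at -0.19 (adjusted p = 0.460). Of the 16 other KLF genes 11 were tested and 0 were called, with a median log2 fold change of -0.38 as deposited and -0.07 after scaling. Under the block on the TPM scale, 4 of the 11 were called lower (KLF3, KLF6, KLF9 and KLF12), KLF6 with a limma adjusted p of 0.0107, beside 19.0% of all genes.

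SOX9 was at 2.44, 2.67 and 2.91 TPM in vehicle and at 1.89, 2.57 and 2.40 TPM in DOX, with overlapping groups. The means were 2.67 ± 0.236 TPM and 2.29 ± 0.353 TPM, and the log2 fold change was -0.16 (SE 0.20, limma adjusted p = 0.558). After scaling the order turned, with 2.34, 2.43 and 2.08 in vehicle and 2.75, 2.58 and 2.61 in DOX and no overlap. The scaled log2 fold change was 0.15 (95% interval -0.12 to 0.42, limma adjusted p = 0.526). The direction for SOX9 therefore depends on the scaling, and on neither scale did the difference pass the test. SOX2, which pairs with POU5F1 on DNA in pluripotent cells, was listed at 0 in 5 samples and had 1 read in vehicle replicate 2 (0.0167 TPM). A count of 3 reads, the upper limit that a count of 0 allows, would be 0.00915 TPM in the deepest sample and 0.235 TPM in the shallowest, and these limits cover counting error and not a failed estimate such as the listed 0 of EIF4A1 may be. The exact permutation test for SOX2 gave p = 1.00.

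Among 20 SOX genes, SOX9 ranked 4 and held 9.04%, 9.19% and 7.93% of the family's TPM in vehicle and 10.5%, 13.5% and 10.00% in DOX. The groups of shares did not overlap (8.72 ± 0.687% against 11.3 ± 1.88%, exact permutation p = 0.100, 0.300 after adjustment over the 6 family shares). SOX4, a factor of epithelial progenitors and tumors, led the family with 18.0 ± 4.73 TPM in vehicle and 9.58 ± 2.90 TPM in DOX. The log2 fold change of SOX4 was -0.85 (SE 0.27, limma adjusted p = 0.0568), and -0.43 (adjusted p = 0.321) after scaling. SOX4 was called lower with the replicate block on the TPM scale, at -0.85 (limma adjusted p = 5.11e-04), beside 19.0% of all genes. SOX12 averaged 5.51 and 5.16 TPM (-0.07, adjusted p = 0.814). Of the 18 other SOX genes listed 3 were tested, 0 were called, and 6 were at 0 in all samples, while with the block 1, SOX4, was called.

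POU5F1, on chromosome 6 (chr6:31164337-31180731), had 2 reads in DOX replicate 1, the deepest library (7.46e-04 TPM), and was listed at 0 in the other 5 samples (exact permutation p = 1.00). The limit of 3 reads was 0.00112 to 0.0287 TPM across samples. These limits are low because the authors' length for POU5F1 was 9.49 times longer, relative to its exonic length in GENCODE, than that of the median gene. POU5F1 also has near-identical copies that can share reads. Of 5 listed paralogs and copies, POU2F1 (OCT1), a broadly expressed POU factor, was the only one tested, at 7.62 TPM in vehicle and 4.73 TPM in DOX (log2 fold change -0.65, limma adjusted p = 0.0957). POU2F1 was called lower with the replicate block on the TPM scale (limma adjusted p = 0.00650), beside 19.0% of all genes. Scaled, POU2F1 was at -0.28 (adjusted p = 0.427). POU5F2 averaged 0.0627 and 0.0456 TPM.

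Among 22 further genes of pluripotency or cancer stem cells, 9 were tested and 0 were called as deposited or after scaling. Their median log2 fold change was -0.66 on the TPM scale, below that of all genes (-0.35), and -0.32 after scaling, beside 0.02. All DOX samples were below all vehicle samples for 7 of the 9 on the TPM scale, beside 30.7% of all genes. After scaling this held for 4 of the 9 (EPCAM, ABCG2, ITGB1 and MSI2), beside 9.13%. On neither scale were all DOX samples above all vehicle samples for any of the 9. ITGB1, an integrin of epithelial progenitors, was the highest with 369 TPM in vehicle and 215 TPM in DOX (-0.79, limma adjusted p = 0.0661), and -0.34 (adjusted p = 0.282) after scaling. CD24, a surface protein used in stem cell sorts, averaged 211 and 116 TPM (-0.89, adjusted p = 0.0568), and -0.44 (adjusted p = 0.296) after scaling. With the replicate block on the TPM scale, 5 of the 9 were called lower (EPCAM, CD24, ABCG2, ITGB1 and MSI2), beside 19.0% of all genes. NANOG, another pluripotency factor, averaged 0.0511 TPM in vehicle and 0.0582 TPM in DOX.

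CD44, the highest member, was at 29.7, 36.6 and 44.6 TPM in vehicle and at 19.8, 32.7 and 30.2 TPM in DOX. DOX replicate 1 was the lowest, and the groups overlapped. The means were 37.0 ± 7.45 TPM and 27.6 ± 6.84 TPM, and the log2 fold change was -0.42 (SE 0.28, limma adjusted p = 0.280). After scaling the levels drew together to 28.6, 33.3 and 31.9 in vehicle and 28.8, 32.9 and 32.8 in DOX. The same-numbered samples then differed by 0.01, -0.02 and 0.04 on the log2 scale. The scaled log2 fold change was 0.01 (95% interval -0.26 to 0.28, limma adjusted p = 0.973). CD44 rests on 1639 to 18672 reads in a sample.

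The listed partners of CD44 make, degrade or bind hyaluronan, link CD44 to actin or splice it. Of 15 such genes 11 were tested and 1 fell on the TPM scale, beside 2.98% of all genes. It is CEMIP, a hyaluronan-degrading protein. CEMIP was at 3.01, 2.95 and 4.26 TPM in vehicle and at 1.58, 0.712 and 2.25 TPM in DOX, with all DOX samples lower. Its log2 fold change was -0.85 (SE 0.22, limma adjusted p = 0.0370), and -0.53 (adjusted p = 0.316) after scaling, where it was not called. The CEMIP call was also lost without vehicle replicate 2 (-0.92, limma adjusted p = 0.301), vehicle replicate 3 (-0.71, adjusted p = 0.459) or DOX replicate 2 (-0.59, adjusted p = 0.0566). Without DOX replicate 2 the scaled value of CEMIP was -0.20 (limma adjusted p = 0.343). With the replicate block on the TPM scale, 3 of the 11 were called lower (CEMIP, TMEM2 and RDX), beside 19.0% of all genes. MSN and EZR, which link membrane proteins to actin, were the highest of the list. MSN averaged 104 TPM in vehicle and 82.5 TPM in DOX (-0.34, adjusted p = 0.373) and EZR averaged 89.7 and 77.4 TPM (-0.22, adjusted p = 0.568). The median of the list was -0.34 as deposited and 0.09 after scaling.

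Of the retinal dehydrogenases, ALDH1A3 averaged 13.9 TPM and ALDH1A1 was listed at 0 in 5 of 6 samples, which can be a failed estimate. Their 250 bases before the start site are shown to set the paralogs side by side, with capitals for GGGCGG on either strand. The sequences are from RefSeq (GRCh38.p14), chr15:100879581-100879830, plus strand, for ALDH1A3 and chr9:72953054-72953303, minus strand, for ALDH1A1.
ALDH1A3: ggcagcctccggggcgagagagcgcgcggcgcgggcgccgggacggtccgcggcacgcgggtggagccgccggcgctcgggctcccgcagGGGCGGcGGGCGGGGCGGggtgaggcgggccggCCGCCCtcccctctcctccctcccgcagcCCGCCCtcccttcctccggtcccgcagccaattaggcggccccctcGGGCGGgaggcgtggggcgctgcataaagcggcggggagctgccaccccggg
ALDH1A1: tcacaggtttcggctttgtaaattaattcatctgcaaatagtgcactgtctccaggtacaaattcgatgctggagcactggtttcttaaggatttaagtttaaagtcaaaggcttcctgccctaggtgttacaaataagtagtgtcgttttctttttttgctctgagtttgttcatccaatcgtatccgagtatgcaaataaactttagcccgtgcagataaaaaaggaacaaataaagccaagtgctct
The ALDH1A3 stretch had a GC content of 82.4% and 6 matches, overlapping ones included, and the ALDH1A1 stretch had a GC content of 38.4% and 0 matches. Promoter stretches were found for 7 of the 10 members. The E-box CACGTG, which MYC and MAX bind, was in that of KLF4 once and in 6.34% of all promoters, and the NF-kB consensus was in that of SOX2 at 2 places and in no other of the 7. TGGGAA, the core that RBPJ binds, was in none of the 7, beside 20.8% of all promoters.

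ALDH1A3 was at 14.4, 14.7 and 19.6 TPM in vehicle and at 9.11, 12.4 and 13.5 TPM in DOX. All DOX samples were below all vehicle samples. The means were 16.2 ± 2.92 TPM and 11.7 ± 2.27 TPM, and the log2 fold change was -0.45 (SE 0.26, limma adjusted p = 0.224). After scaling the levels were 13.8, 13.4 and 14.0 in vehicle and 13.3, 12.4 and 14.7 in DOX, and the groups overlapped. For ALDH1A3 the scaled log2 fold change was -0.03 (95% interval -0.30 to 0.23, limma adjusted p = 0.900). ALDH1A1 had 1 read in DOX replicate 1 (0.00326 TPM) and was listed at 0 in the other 5 samples, where 3 reads would be 0.0498 to 0.251 TPM (exact permutation p = 1.00).

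ALDH1A3 ranked 6 of 19 aldehyde dehydrogenase genes, with 8.55 ± 0.302% of the family's TPM in vehicle and 8.13 ± 0.635% in DOX (exact permutation p = 0.600). ALDH3A2, which oxidizes fatty aldehydes, led with 43.3 TPM in vehicle and 28.6 TPM in DOX (-0.59, limma adjusted p = 0.147). ALDH3B1 followed with 23.6 and 19.3 TPM (-0.28, adjusted p = 0.452). Of the 17 other family genes 12 were tested and 0 were called on either scale. With the replicate block on the TPM scale 2 of the 12 were called lower, ALDH3A2 (limma adjusted p = 0.0173) and ALDH6A1, beside 19.0% of all genes. The median log2 fold change was -0.28 as deposited and 0.09 after scaling. ALDH1A2, the third retinal dehydrogenase of this group, averaged 0.0369 TPM in vehicle and 0.0529 TPM in DOX.

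NOTCH1 was at 1.20, 0.976 and 1.33 TPM in vehicle and at 1.07, 1.02 and 0.966 TPM in DOX. The groups overlapped and the level was just over the expression minimum. The means were 1.17 ± 0.179 TPM and 1.02 ± 0.0505 TPM, and the log2 fold change was -0.10 (SE 0.18, limma adjusted p = 0.690). After scaling NOTCH1 was at 1.16, 0.889 and 0.953 in vehicle and at 1.55, 1.03 and 1.05 in DOX, with DOX replicate 1 the highest. The scaled log2 fold change was 0.14 (95% interval -0.18 to 0.46, limma adjusted p = 0.621), so the direction for NOTCH1 also depends on the scaling. NOTCH1 ranked 3 of the 4 NOTCH receptor genes and held 9.31 ± 1.14% of their TPM in vehicle and 10.1 ± 1.82% in DOX (exact permutation p = 0.600). NOTCH2 led the receptors with 8.43 TPM in vehicle and 6.66 TPM in DOX (-0.30, limma adjusted p = 0.372).

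Of 36 listed genes of the NOTCH pathway 24 were tested, and 1 fell on the TPM scale, beside 2.98% of all genes. With the replicate block 5 were called lower (ADAM10, MIB1, ITCH, RBPJ and HES1), beside 19.0%. That gene is HES1, a repressor and a target that cleaved NOTCH activates through RBPJ. HES1 was at 15.7, 19.9 and 25.5 TPM in vehicle and at 9.62, 4.22 and 13.8 TPM in DOX, with all DOX samples lower and DOX replicate 2 lowest. The log2 fold change was -1.17 (SE 0.29, limma adjusted p = 0.0326), and -0.75 (adjusted p = 0.325) after scaling, where it was not called. The HES1 call was also lost without vehicle replicate 2 (-1.17, limma adjusted p = 0.301), vehicle replicate 3 (-1.0, adjusted p = 0.459) or DOX replicate 2 (-0.74, adjusted p = 0.0569). Without DOX replicate 2 the scaled value of HES1 was -0.22 (limma adjusted p = 0.306). NCSTN, a subunit of gamma-secretase, and ADAM10, the protease that makes the first cut of the receptor, were the highest of the list. NCSTN averaged 93.9 TPM in vehicle and 69.3 TPM in DOX (-0.40, adjusted p = 0.322). ADAM10 averaged 82.6 and 46.5 TPM (-0.86, adjusted p = 0.0683, and 5.08e-04 with the block), and -0.42 (adjusted p = 0.282) after scaling. Among other targets, HEYL was at 1.54 and 1.39 TPM (-0.08, adjusted p = 0.765) and HES4 at 1.41 and 1.32 TPM (-0.07, adjusted p = 0.793). Among the ligands JAG2 averaged 3.75 and 3.46 TPM (-0.09, adjusted p = 0.767), and JAG1 was under the minimum at 0.738 and 0.385 TPM. The median of the NOTCH list was -0.29 as deposited and 0.07 after scaling.

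**Figure D4:**
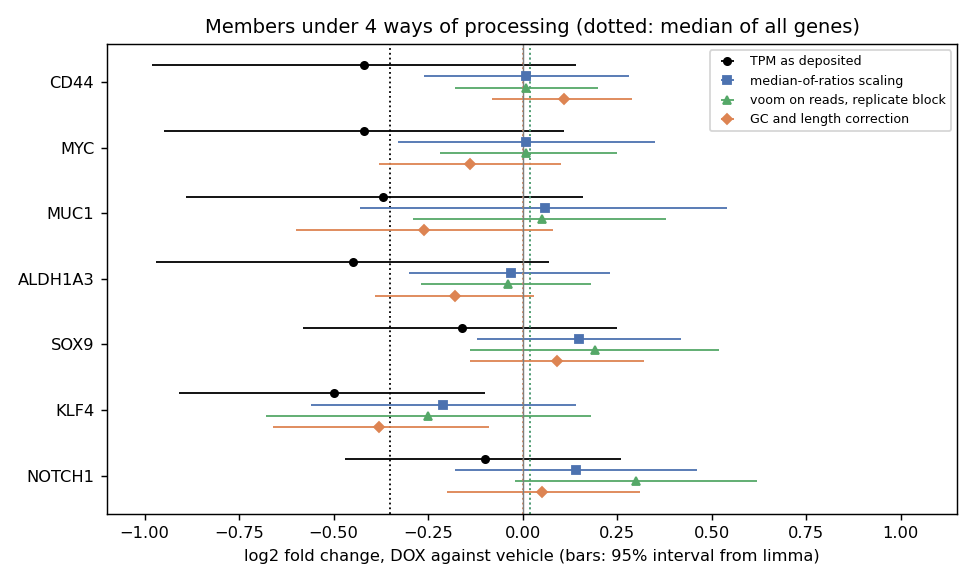
Log2 fold change, DOX against vehicle (horizontal axis), of the 7 members tested under 4 ways of processing, with bars at the 95% interval from limma and dotted lines at the median of all genes in each. The TPM values (black) lie between -0.50 and -0.10 and the median-of-ratios values (blue) between -0.21 and 0.15, and the intervals include 0 except those of KLF4 on the TPM scale and after the GC and length correction.

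Over the 9 lists of related genes, 81 of 156 genes were tested and 2 were called on the TPM scale, HES1 and CEMIP, both lower. With the replicate block on the TPM scale 22 of the 81 were called lower, beside 19.0% of all genes. Of these 81, 78 had a negative log2 fold change as deposited and 40 after scaling. The signs of the listed genes thus moved with the scaling in the way those of the members did, of which 7 of 7 were negative as deposited and 2 of 7 after scaling.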

How the data were processed

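The RNA-seq data comprised 3 vehicle and 3 DOX samples of DU-145/tet-XISTshRNA cells, grouped and numbered from the sample labels. The sample records name a column-based RNA kit and the paper names Trizol, and the sources used here differ likewise on the supplier of the XIST vector. The authors prepared stranded mRNA libraries, aligned reads with STAR to GRCh38 (GRCh38.74 in the paper) and deposited TPM per gene symbol. Software versions, the counting tool and its strand setting were not given in the sources used here, so reads from antisense genes may not be told apart. A second deposited table holds the authors' comparison from DESeq2 (log2 fold changes, standard errors, p-values), which was not used, and their mean of normalized counts, a signal over all samples. That deposited mean signal served, with the TPM, to recover reads. Low values came out whole in 100% of cases (tolerance 0.01 reads, 2.00% by chance, 75476 values). Intervals and limits from reads cover counting error only.

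The main test was limma 3.58.1 in R 4.3.3 on log2(TPM + 1), a scale that understates changes of low genes, over genes with mean TPM of at least 1, with a trend of variance and Benjamini-Hochberg adjustment. Genes were called at adjusted p under 0.05 and fold over 1.5. Members under the minimum were tested by two-sided exact permutation (smallest p 0.1). The members and lists were chosen with earlier results of these data known. Named genes were all members, each gene of a list that was called, the 2 highest of each list, and the 3 most like MUC1. Further listed genes (NANOG, ALDH1A2, NOTCH2, JAG1, JAG2, HES4, HEYL and those called only with the block) were named after their values were seen. Gene positions are from GENCODE release 44, and GC content and length were matched for 23043 symbols (90.3%).

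The labels do not say what a replicate number stands for. The deviations of vehicle and DOX samples that share a number from their group means were correlated over genes. The r was 0.57, 0.24 and 0.21 for replicates 1, 2 and 3, and 0.56, 0.26 and 0.19 after scaling. After the GC and length correction it was 0.18, 0 and 0.17. Samples of unlike number were not correlated for reference, so these values do not show that the numbers mark pairs. The pairing rests on them alone. Alternatives were median-of-ratios scaling, TPM without 5 small RNAs, a pseudocount of 0.1, no filter, the replicate block, a spline correction (5 degrees of freedom) for GC content and length, limma voom on recovered reads, and leaving out each sample. Scaling with a sample left out, and the pairing after the GC and length correction, were added after seeing the data. On simulated data, limma recovered 181 of 200 genes changed 2-fold with 7 false calls, and voom recovered 198 with 2. The simulated reads had the same fixed dispersion for every gene, no shift in the share of small RNAs and no replicate effect. These rates therefore check the code and do not give the power of the tests in the real samples. In a separate simulation, the recovery of reads was right for 100% of 18947 genes.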

Additional observations from a re-analysis of the deposited data

How the results depend on the processing

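No member was called under any of 22 alternatives. Of 154 member values under them, 104 kept their sign and 50 turned to the other sign without being called. With median-of-ratios scaling, with or without the replicate block, the log2 fold change was 0.06 for MUC1, 0.01 for MYC, 0.15 for SOX9, 0.01 for CD44 and 0.14 for NOTCH1. With voom on recovered reads it was 0.07 for MUC1, 0.02 for MYC, 0.19 for SOX9, 0.01 for CD44 and 0.31 for NOTCH1, and with voom and the replicate block 0.05, 0.01, 0.19, 0.01 and 0.30. The GC and length correction, with or without the block, gave 0.09 for SOX9, 0.11 for CD44 and 0.05 for NOTCH1, and leaving out 5 small RNAs gave 0.11 for SOX9 and 0.14 for NOTCH1. Without 1 sample, no TPM value turned. The scaled values that turned were 0.03 to 0.15 for MUC1 without a vehicle sample and 0.32 without DOX replicate 2, and likewise 0.03 to 0.04 and 0.16 for MYC, 0.03 to 0.06 and 0.07 for CD44 (DOX replicate 1), and 0.02 for ALDH1A3 (DOX replicate 2). They were 0.11 to 0.18 without a vehicle and 0.13 to 0.17 without a DOX sample for SOX9, and 0.10, 0.12 and 0.19 and then 0.03 to 0.20 for NOTCH1. The cause of these turns was not tested, beyond that the scaling moves the median of all genes.

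Counts of calls moved more. The all-gene counts, 348 lower and 3 higher, became 0 and 0 with scaling or the GC and length correction (each with or without the block), with 5 small RNAs left out or with no filter, 46 lower with a pseudocount of 0.1, 2217 lower and 15 higher with the replicate block, 1 and 0 with voom, and 262 and 173 with voom and the block. Without 1 sample they were 0 lower (vehicle replicate 3) to 2378 lower (DOX replicate 2) and 0 to 23 higher, so that each of the 6 samples moved the lower count by over 1.5 times when left out, and after scaling 0 to 7 lower and 0 to 15 higher. The 2 listed genes called lower became 22 with the replicate block, 1 (MUC16) with voom and the block, 0 with the other settings named, and 0 to 13 without 1 sample. After the GC and length correction the correlation of same-numbered samples was 0.18, 0 and 0.17. The replicate block changed no call of a member. In vehicle replicate 3, the shallowest library, KLF4 had 51 reads, SOX9 61 and NOTCH1 69.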
